A study of Homo sapiens with 12 samples.

Results

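The proteins of the mitochondrial ribosome were followed at the RNA level in a human lens epithelial cell line, SRA01/04, an immortalised line. Genes were taken as members when their symbol was MRPL or MRPS followed by a number and, for some, a letter A, B or C. This gave 78 of the 60641 symbols in the deposited table, 49 named for the large subunit (MRPL) and 29 for the small subunit (MRPS). There were 4 groups with 3 libraries each, all labelled 24 h. DHN-A cells received 1,2-DHN (1,2-dihydroxynaphthalene, a metabolite of naphthalene) together with asparagine. DHN cells received 1,2-DHN alone, NC-A cells received asparagine alone, and NC cells received neither. The sources used here give neither doses nor the order of addition. Nothing in the labels says that the libraries of a group came from separate cultures, so p-values reflect the spread among these samples alone, and that spread may be technical.

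The mitochondrial ribosome translates the few messenger RNAs encoded by mitochondrial DNA, all of which specify subunits of the respiratory chain and ATP synthase. Its ribosomal RNAs are mitochondrially encoded, whereas every one of its proteins is encoded in the nucleus, made in the cytosol and imported. Part of these proteins descend from the proteins of the bacterial ribosome, and the others are found only in mitochondria. In the lens, mitochondria are kept in the epithelium and lost from mature fibre cells.

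Total counts ran from 12381071 to 27526206 per library, and the members took 0.313% to 0.341% of them. One library, NC-A 1, stood apart from NC-A 2 and NC-A 3 on the first principal component (-65.1, against -12.5 and -10.4), and counts of changed genes that involve it are given below with and without it. PAX6, a transcription factor of the lens epithelium, stood at 21.6 to 30.9 CPM (counts scaled to a common library size) and SIX3 at 10.5 to 15.5 CPM. Among the crystallins and fibre proteins, CRYAA, MIP and LIM2 each had 0 counts in at least 1 library and at most 0.161 CPM. CRYAB, a small heat shock protein of the lens that other cells also make, stood at 3.67, 3.97 and 3.80 CPM in DHN-A, 12.1, 10.8 and 9.39 in DHN, 1.18, 1.38 and 0.747 in NC-A and 0.373, 1.06 and 0.676 in NC. The summed level of the 14 lens markers, CRYAB included, was 47.4 to 50.3 CPM in DHN-A, 60.6 to 65 in DHN, 42.4 to 44.5 in NC-A and 46.7 to 48.2 in NC. The summed level of 8 fibroblast markers was 1196 to 1265 CPM in DHN-A, 823 to 875 in DHN, 1215 to 1220.3 in NC-A and 1387 to 1466 in NC. The part of these marker differences in the results on the ribosomal proteins was not tested.

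Levels between genes were compared as TPM (transcripts scaled to a common total), computed from the deposited counts and gene lengths. The median member stood at 57.0 TPM (mean over 12 libraries), against 402 TPM for the median of 79 cytosolic ribosomal protein genes. With the deposited lengths MRPL41 was highest with 305 TPM, followed by MRPL18 with 295 and MRPS26 with 285. The place of MRPL41 rests on its deposited length of 582 bases. With the 1262 exon bases that GENCODE release 29 annotates it stood at 141 TPM and ranked 12 of 78, and MRPL18 was highest with 294 TPM. That length was tried after seeing the data. The median was 59.5 TPM for the large-subunit genes and 48.8 TPM for the small-subunit genes. The 46 members with a relative in the bacterial ribosome had a median of 55.2 TPM, and the 32 without one had 61.8 TPM.

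**Figure D1:**
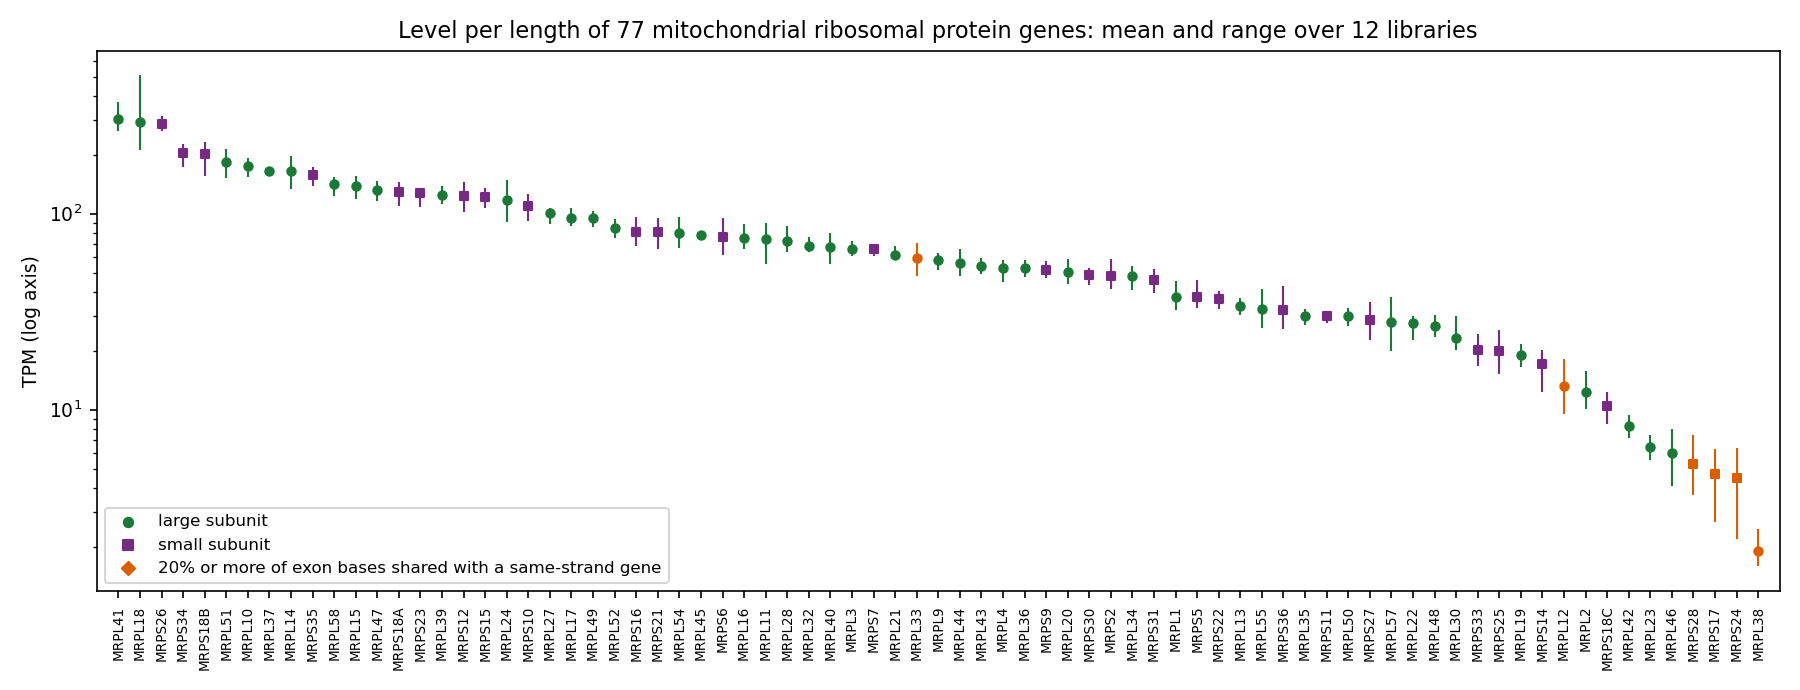
Mean TPM (points, log axis) and range over 12 libraries (lines) of the 77 members with counts, in order of level; MRPL53 is listed at 0 and not drawn. The members that share at least 20% of their exon bases with a gene on the same strand lie mostly at the low end, with MRPL38, MRPS24, MRPS17 and MRPS28 as the 4 lowest points.

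MRPL53, a large-subunit gene on chromosome 2 from 74471958 to 74473322 (GRCh38, GENCODE release 29, as for all gene positions), had 0 counts in all 12 libraries. Its annotated exons share 45.2% of their bases with CCDC142, which lies on the same strand. Members of which at least 20% of the exon bases were shared in this way numbered 7, and their median level was 4.70 TPM, against 65.9 TPM for the other 71. Besides MRPL53 these were MRPL38, which shares 37.5%, MRPS28 with 35.8%, MRPS17 with 27.0%, MRPS24 with 23.2%, MRPL33 with 21.1% and MRPL12 with 68.2%. Reads from shared exons can be lost or assigned to the neighbour, and the sources used here do not give the rule used for counting. The levels of these genes are therefore uncertain, and so is MRPL53's count of 0. By sampling alone a count of 0 allows up to 3 counts per library, a limit that does not cover reads assigned elsewhere.

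The members lie on 21 chromosomes, and 69 had a window from 250 bases before to 50 bases after a transcription start in the promoter table of RefSeq (build GRCh38.p14). The motif AAGATGGC, bound by the transcription factor YY1, was found on either strand in 21 of these 69 members (30.4%), against 3.52% of 27305 genes with a window. The ETS motif CCGGAAG, bound by GABP, was found in 30 members (43.5%), against 12.16% of genes. The motif of the nuclear respiratory factor NRF1 was found in 9 members (13.0%), against 6.98% of genes. The heat shock motif GAANNTTC was found in 6 members (8.7%), against 8.21% of genes. Both the ETS and the YY1 motif were in the windows of 8 of the 69 members, against 0.76% of genes. None of the 4 motifs was found in 20 members, and the share of genes with none was not computed. The YY1 motif contains the letters ATG. In 13 of the 21 members that ATG lay on a start codon annotated by GENCODE for the same gene, so that the motif and the first codons of the protein are the same bases. The windows below, with the motif in capitals, show this for 6 members whose levels are described further on; all run 5′ to 3′ on the strand of the gene.
MRPS18B, chr6:30617854-30617879 (+): gcgtacgtcAAGATGGCggcgtctgt
MRPS18A, chr6:43687766-43687791 (-): aggtttttgAAGATGGCggccctcaa
MRPS10, chr6:42217836-42217861 (-): gggaccggcAAGATGGCggcgcggac
MRPS27, chr5:72320208-72320233 (-): gtacgctccAAGATGGCtgcctccat
MRPL46, chr15:88467364-88467389 (-): ggagaacgaAAGATGGCggcgcccgt
MRPL22, chr5:154941099-154941122 (+): ggagggcgaAAGATGGCggcggca
A match in these windows is a description of the letters only, since the binding of a factor was not measured.

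Of the 78 members, 77 had counts high enough for testing (edgeR's filterByExpr) and were tested among 17889 genes with edgeR's quasi-likelihood test, with Benjamini-Hochberg adjustment over all tested genes and a threshold of 0.05. Across the 5 comparisons between pairs of groups, 43 members were called at least once and 34 were never called. The share of all tested genes called at least once was not computed, so 43 of 77 cannot be set against a background. Single comparisons called 2.1% to 41.7% of all tested genes, which is not the same measure. Changes are log2 fold changes ± SE throughout, where SE is the size of the change divided by the square root of the test's F statistic. Most were small: the median size, without regard to sign, was 0.14 for the members in DHN-A against DHN, against 0.25 for all tested genes. In DHN against NC it was 0.12, against 0.23, and in NC-A against NC it was 0.11, against 0.16. The cytosolic ribosomal protein genes likewise had small changes, with medians of 0.11, 0.10 and 0.11 in the same order of comparisons. In DHN-A against NC-A, which called 2.1% of all tested genes, the median was 0.063 for the members and 0.095 for all tested genes. For the cytosolic ribosomal protein genes it was 0.121. The tested genes were not matched to the members in count level, so these gaps may not be particular to the members.

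**Figure D2:**
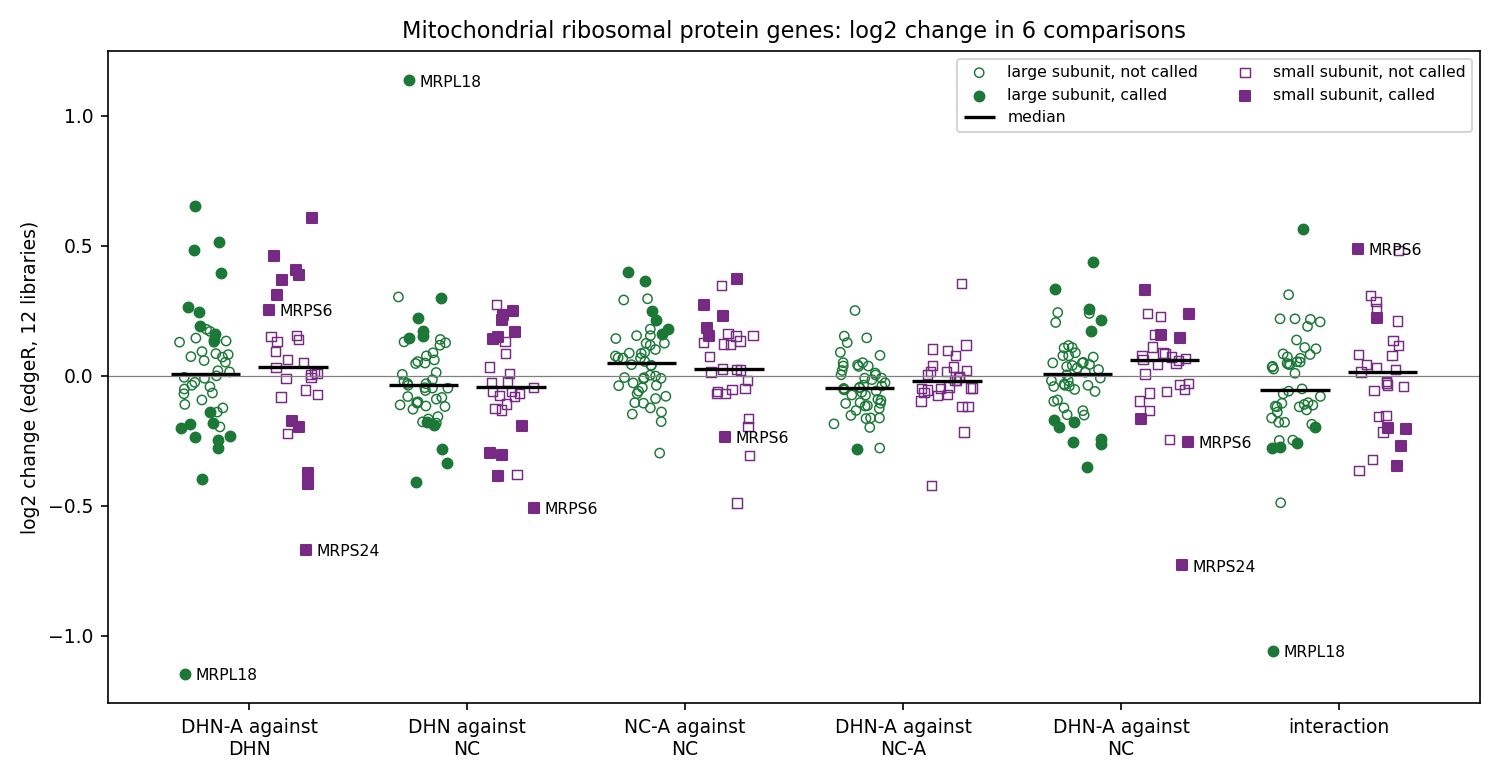
Log2 change of the 77 tested members in each of 5 pairwise comparisons and in the interaction, with large-subunit genes as circles, small-subunit genes as squares, called genes filled and black lines at the medians. MRPL18 lies far from all other members at 1.14 in DHN against NC, at -1.15 in DHN-A against DHN and at -1.06 in the interaction.

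The comparison of DHN with NC addressed the effect of 1,2-DHN in cells without added asparagine. Of the 77 tested members, 12 rose and 10 fell (28.6% called), against 38.7% of all tested genes called, 19.7% higher and 19% lower. The median log2 change was -0.04, against 0.01 for all tested genes. Called with no overlap between the libraries of the groups were 17 of the 77 (22.1%), against 36.4% of all tested genes. Among large-subunit genes 6 rose and 5 fell of 48, with a median of -0.03, and among small-subunit genes 6 rose and 5 fell of 29, with a median of -0.04. The number of members that rose was 6 without NC 1, 7 without DHN 1 and 6 when genes with low counts were not filtered out. Numbers over all tested genes in these settings are not given here.

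The largest change of any member was that of MRPL18, on chromosome 6 from 159789812 to 159798436. MRPL18 is a relative of bacterial L18 in the central protuberance of the large subunit. A cytosolic form of it that joins cytosolic ribosomes after heat shock has been described in human cells. Its level was 81.4, 79.5 and 71.6 CPM in DHN-A, 173, 170.0 and 172 CPM in DHN, 73.6, 74.9 and 71.9 CPM in NC-A and 76.6, 80.9 and 76.5 CPM in NC. The 3 DHN libraries were alone high, and the other 9 libraries lay close together. The change was 1.14 ± 0.046 in DHN against NC (adjusted p = 6.29e-25, edgeR), a 2.20-fold rise. In DHN-A against DHN it was -1.15 ± 0.046 (adjusted p = 3.10e-25, edgeR). DHN-A did not pass the test against NC (-0.01 ± 0.047) or against NC-A (0.08 ± 0.049). Both calls rest on the DHN libraries, and each was also made with any 1 library left out.

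MRPL18 begins 63 bases from the start of TCP1, which is read in the opposite direction and encodes a subunit of the cytosolic chaperonin TRiC. The 62 bases between both starts, as GENCODE annotates them, are printed here on the strand of MRPL18, with letters from RefSeq (GRCh38.p14). A CCAAT box and the ETS core CGGAAG are in capitals. The stretch is printed because both genes begin at its edges in GENCODE.
MRPL18, chr6:159789750-159789811 (+): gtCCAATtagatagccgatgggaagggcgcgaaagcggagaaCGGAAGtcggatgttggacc
The CCAAT box starts 60 bases and the ETS core 20 bases before MRPL18. On either strand, CCAAT was in the promoter windows of 39.7% and CGGAAG in those of 22.6% of genes. A match to the heat shock motif GAANNTTC, in capitals below, began at base 15 of the gene.
MRPL18, chr6:159789817-159789842 (+): gaagaggttGAACCTTCgcctcaaac
TCP1 stood at 363, 356 and 377 CPM in DHN-A, 552, 559 and 539 CPM in DHN, 374, 377 and 374 CPM in NC-A and 389.8, 432 and 388 CPM in NC. It was thus also highest in the 3 DHN libraries, with changes of 0.45 ± 0.038 in DHN against NC and -0.59 ± 0.038 when DHN-A was set against DHN (adjusted p = 1.14e-13 and 1.36e-17, edgeR). Of the 19 members with a coding gene starting head to head within 1000 bases, MRPL18 was the 1 member that rose together with its neighbour in DHN against NC. Pairs called in the same direction numbered 2 in DHN-A against DHN, MRPL18 with TCP1 among them, and 1 in NC-A against NC. Pairs called in opposite directions numbered 1 in DHN against NC, 1 in DHN-A against DHN and 0 in NC-A against NC. No share over all head-to-head gene pairs was computed.

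Other members rose less under 1,2-DHN. MRPS5, a relative of bacterial S5 in the small subunit, stood at 95.3, 89.7 and 90.2 CPM in DHN, against 78.9, 75.5 and 76.7 CPM in NC, a change of 0.25 ± 0.047 (adjusted p = 2.18e-05, edgeR) with no overlap. MRPS35, found only in mitochondria, stood at 82.4, 82.0 and 74.9 CPM in DHN, against 71.2, 67.2 and 67.7 CPM in NC, a change of 0.22 ± 0.051 (adjusted p = 0.000548, edgeR), again with no overlap. MRPL32, a relative of bacterial L32, rose by 0.17 ± 0.054 and MRPS10 by 0.15 ± 0.056. Without the filter on low counts neither passed (adjusted p = 0.0506 and 0.125, edgeR), and MRPS10 was also lost without DHN 1, DHN 2 or NC 3 (up to 0.157). MRPS12, which lies at the decoding centre, rose by 0.23 ± 0.070, MRPL44 by 0.22 ± 0.079, MRPL55 by 0.30 ± 0.110 and MRPS18A by 0.17 ± 0.067. The calls of these last 4 genes were each lost without 1 library: MRPS12 without DHN 3, NC 1 or NC 2 (adjusted p up to 0.0707), MRPL44 without DHN 1, DHN 3 or NC 3 (up to 0.153), MRPL55 without DHN 3, NC 1 or NC 2 (up to 0.297), and MRPS18A without DHN-A 1, DHN 1, DHN 2, NC 1 or NC 2 (up to 0.241, edgeR). MRPL44 was also lost without the filter (0.0658, edgeR), and MRPL55 with DESeq2 (0.0594) and limma-voom (0.0534). MRPS18A was lost with DESeq2 (0.0728), limma-voom (0.0779), no filter (0.109), the replicate block (0.0522) and a fit of only the groups compared (0.0555).

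Among the members that fell under 1,2-DHN, MRPS6 changed most. MRPS6, a relative of bacterial S6 on chromosome 21 from 34073224 to 34143034, stood at 80.1, 77.4 and 79.9 CPM in DHN-A, 65.8, 67.7 and 65.6 CPM in DHN, 72.7, 85.9 and 81.6 CPM in NC-A and 87.8, 101 and 93.3 CPM in NC. The NC libraries were the highest, the DHN libraries the lowest, and both asparagine groups lay between them. The change was -0.25 ± 0.051 in DHN-A against NC, -0.51 ± 0.054 in DHN against NC and -0.24 ± 0.054 in NC-A against NC (adjusted p = 0.000231, 8.75e-11 and 0.000979, edgeR), and these comparisons share the NC libraries. SLC5A3, the sodium-coupled myo-inositol transporter, is annotated within the same stretch on the same strand, from 34073570 to 34106262, and shares 6.35% of the exon bases of MRPS6. SLC5A3 was at 144, 142 and 157 CPM in DHN-A, 264, 267 and 251 CPM in DHN, 149.8, 144 and 145 CPM in NC-A and 368, 369.6 and 351 CPM in NC. Both genes were highest in NC, but in DHN-A against DHN SLC5A3 fell (-0.82 ± 0.041) and MRPS6 rose (0.25 ± 0.053; adjusted p = 2.07e-21 and 0.000118, edgeR).

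MRPL46, a protein of the central protuberance found only in mitochondria, stood at 6.53, 7.29 and 7.57 CPM in DHN, against 8.27, 10.7 and 9.55 CPM in NC. All 3 DHN libraries lay below the NC libraries, and the change was -0.41 ± 0.124 (adjusted p = 0.00665, edgeR; 0.0693 without NC 2). MRPS11, which starts 34 bases from MRPL46 in the opposite direction, changed by 0.01 ± 0.060 and did not pass the test. MRPL54 fell by 0.34 ± 0.087, MRPS27 by 0.31 ± 0.077, MRPL11, a relative of bacterial L11 at the base of the stalk, by 0.28 ± 0.061, and MRPS14 by 0.38 ± 0.117. The call of MRPS14 was lost without DHN 3 or NC 3 (adjusted p up to 0.091, edgeR), and that of MRPS21, which fell by 0.19 ± 0.070, without DHN 1 or NC 3 (up to 0.149). Of the 3 human relatives of bacterial S18, MRPS18B fell by 0.30 ± 0.050 (adjusted p = 2.92e-06, edgeR), MRPS18A, which sits in the large subunit despite its name, changed by 0.17 ± 0.067 with a call lost in 10 of 18 alternatives, and MRPS18C changed by -0.02 ± 0.107 and did not pass.

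**Figure D3:**
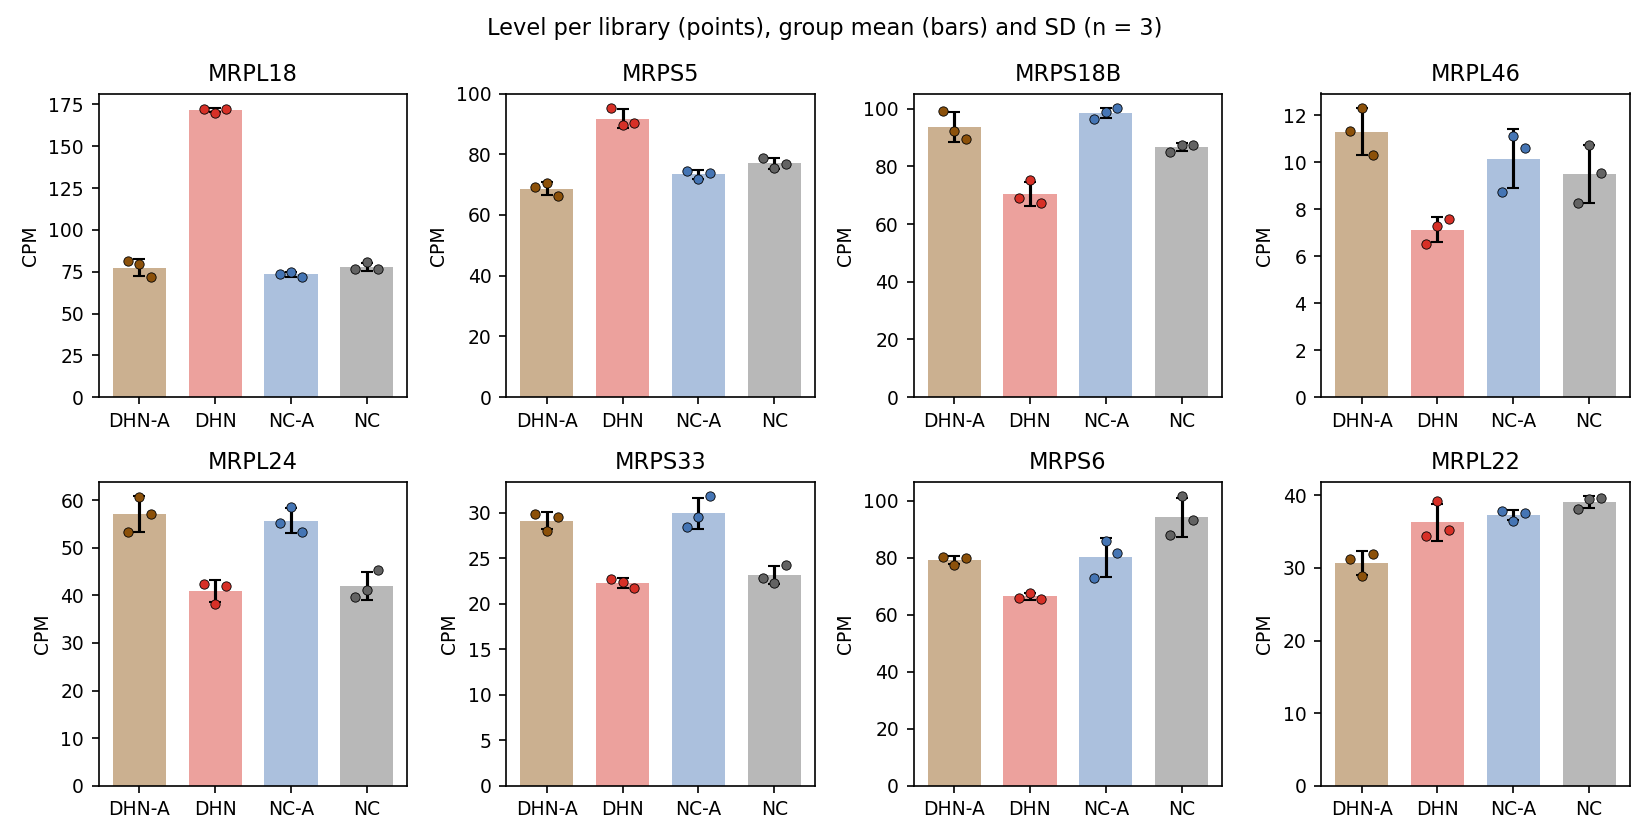
CPM of 8 members in the 12 libraries (points) with group means (bars) and SD (n = 3), groups in the order DHN-A, DHN, NC-A and NC. MRPL18 and MRPS5 are high in DHN alone, MRPS18B and MRPL46 low in DHN, and MRPL24 and MRPS33 high in both groups that received asparagine.

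The comparison of DHN-A with DHN addressed the effect of asparagine under 1,2-DHN. Here 16 members were higher and 15 lower of 77 (40.3% called), against 41.7% of all tested genes called, 20.9% higher and 20.8% lower. The median log2 change was 0.02, against 0.01 for all tested genes. Called without overlap were 27 of the 77 (35.1%), against 39.7% of all tested genes. Of the 48 large-subunit genes 9 rose and 10 fell (median 0.01), and of the 29 small-subunit genes 7 rose and 5 fell (median 0.03). This comparison shares the DHN libraries with DHN against NC, so changes of a gene in both are not independent of each other.

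MRPS5 stood at 69.1, 70.4 and 66.3 CPM in DHN-A, against 95.3, 89.7 and 90.2 CPM in DHN. The groups were well apart, with a change of -0.42 ± 0.047 (adjusted p = 3.85e-10, edgeR). MRPL14, a relative of bacterial L14, was at 34.5, 37.0 and 30.7 CPM in DHN-A and 44.6, 43.6 and 46.3 CPM in DHN, without overlap, and fell by 0.40 ± 0.066. MRPL47, a relative of bacterial L29, fell by 0.28 ± 0.057, and MRPL22, a relative of bacterial L22 that lines the exit tunnel, by 0.25 ± 0.064. MRPS24 fell by 0.67 ± 0.225 at a level of 2.59, 2.25 and 1.36 CPM in DHN-A, against 2.82, 3.81 and 3.21 CPM in DHN; its call was lost without DHN-A 3 or DHN 2 (adjusted p up to 0.127, edgeR). MRPS36, which is now known as a component of the oxoglutarate dehydrogenase complex and not of the ribosome, fell by 0.37 ± 0.112, with overlap between the groups and a call lost without DHN-A 2 or DHN 3 (adjusted p up to 0.0917, edgeR).

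The largest rise in DHN-A against DHN was that of MRPL46, at 11.3, 12.3 and 10.3 CPM in DHN-A, against 6.53, 7.29 and 7.57 CPM in DHN. All 3 DHN-A libraries lay above the DHN libraries, and the change was 0.65 ± 0.119 (adjusted p = 1.33e-05, edgeR). MRPL57 rose by 0.52 ± 0.113, at 16.6, 18.6 and 18.6 CPM in DHN-A, against 11.8, 11 and 14.5 CPM in DHN. MRPL24, a relative of bacterial L24, rose by 0.48 ± 0.061 and MRPS14 by 0.46 ± 0.114. MRPS18B, the small-subunit S18 protein, stood at 99.3, 92.1 and 89.4 CPM in DHN-A and 68.9, 75.2 and 67.3 CPM in DHN. The groups did not overlap, and the change was 0.41 ± 0.049 (adjusted p = 1.81e-09, edgeR). MRPL11 rose by 0.40 ± 0.060, MRPS33 by 0.39 ± 0.071 and MRPS16, a relative of bacterial S16, by 0.37 ± 0.056.

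The effect of asparagine alone was addressed by NC-A against NC. Of the 77 members, 11 rose and 1 fell (15.6% called), against 20.2% of all tested genes called, 9.32% higher and 10.9% lower. The median log2 change was 0.04, against 0.00 for all tested genes. All 12 called members (15.6% of the 77) were without overlap between the groups, and 19.2% of all tested genes were called without overlap. The rises comprised 6 of 48 large-subunit genes (median 0.05) and 5 of 29 small-subunit genes (median 0.03), and the fall was that of MRPS6. Without NC-A 1, the library that stood apart, 9 members rose and 1 fell. All tested genes called then numbered 2982, against 3612 with every library. Without NC 1 the number of members that rose was 6, and without NC 2 the number that fell was 3. Without the filter on low counts, 6 rose. Numbers over all tested genes in these last settings are not given here, so the shifts may not be particular to the members. Among cytosolic ribosomal protein genes, 36 of 79 rose.

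MRPL24 stood at 55.2, 58.5 and 53.3 CPM in NC-A, against 39.6, 41.1 and 45.3 CPM in NC, a change of 0.40 ± 0.063 (adjusted p = 4.21e-06, edgeR). In the cells given 1,2-DHN it stood at 53.4, 60.8 and 57.1 CPM in DHN-A, against 42.5, 38.2 and 42.1 CPM in DHN. The 6 libraries with asparagine were all higher than the 6 libraries without it. MRPS33, found only in mitochondria, was at 29.8, 28.0 and 29.5 CPM in DHN-A, 22.7, 22.4 and 21.7 in DHN, 28.5, 29.5 and 31.8 in NC-A and 22.8, 22.3 and 24.2 in NC. Its 6 libraries with asparagine were likewise all higher, and the change was 0.37 ± 0.073 in NC-A against NC (adjusted p = 0.000155, edgeR). Higher levels with asparagine in both NC-A against NC and DHN-A against DHN, which share no library, were called for 6 members: MRPL24, MRPS33, MRPL40, MRPS16, MRPL11 and MRPS18B. These were 7.79% of the 77, against 4.57% of all tested genes called higher in both. Called lower in both were 0 members, against 4.9% of all tested genes. MRPL40, in the central protuberance, rose by 0.36 ± 0.072 in NC-A against NC and by 0.24 ± 0.070 in DHN-A against DHN, and MRPS16 by 0.23 ± 0.058 and 0.37 ± 0.056. The call of MRPL40 in DHN-A against DHN was lost without DHN-A 3 (adjusted p = 0.0561, edgeR). For MRPL24 and MRPS33 the interaction was 0.08 ± 0.088 and 0.02 ± 0.102 and did not pass the test (adjusted p = 0.554 and 0.946, edgeR).

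MRPS10 rose by 0.27 ± 0.056 in NC-A against NC, with 64.6, 62.1 and 58.6 CPM in NC-A and 53.0, 51.7 and 48.7 CPM in NC. MRPL58, a peptidyl-tRNA hydrolase built into the large subunit, rose by 0.21 ± 0.063 and MRPL30 by 0.25 ± 0.075. The call of MRPL58 was lost without NC-A 2 or NC 1 (adjusted p up to 0.0675, edgeR), and that of MRPL30 without NC-A 1 or NC 1 (up to 0.176). Both were also lost without the filter on low counts (0.0717 for MRPL58 and 0.0545 for MRPL30). MRPL12, which forms the stalk of the large subunit, changed by 0.07 ± 0.236 and MRPS30, a large-subunit protein despite its name, by 0.01 ± 0.052, and neither passed the test in any comparison.

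For the effect of 1,2-DHN in the presence of asparagine, DHN-A was set against NC-A. Here 0 of 77 members were higher and 1 was lower (1.30% called), against 2.1% of all tested genes called, 0.805% higher and 1.29% lower. DESeq2 and limma-voom also called 0 members higher and 1 lower, and at an unadjusted p under 0.05 edgeR gave 0 higher and 9 lower. Of all 17889 tested genes, 1141 were higher and 1197 lower at that unadjusted threshold. Without NC-A 1 the counts were again 0 higher and 1 lower, and 288 of all tested genes were called. The 1 called gene was MRPL22, with groups that did not overlap; 2.09% of all tested genes were called without overlap. It stood at 31.3, 28.9 and 32.0 CPM in DHN-A, 34.4, 39.2 and 35.3 in DHN, 37.8, 36.5 and 37.5 in NC-A and 38.2, 39.4 and 39.6 in NC. The DHN-A libraries were the lowest of the 12. The change was -0.28 ± 0.066 (adjusted p = 0.00985, edgeR), and the call was lost without DHN-A 2 (0.122) or NC-A 3 (0.0664). The median change of the members was -0.04, and 22 of 79 cytosolic ribosomal protein genes fell. Without DHN-A 3 the number of members lower was 2. Of all tested genes 375 were called, and 230, 143, 226 and 170 without DHN-A 1, DHN-A 2, NC-A 2 and NC-A 3.

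DHN-A against NC compared cells given both compounds with cells given neither. In it 9 members were higher and 10 lower (24.7% called), against 21.1% of all tested genes called, 9.83% higher and 11.2% lower, and 16 of the 77 (20.8%) were called without overlap, against 20% of all tested genes. Without DHN-A 2 the member counts were 4 higher and 6 lower, without DHN-A 1 there were 5 higher, and without NC 3 there were 5 lower. Numbers over all tested genes in these settings are not given here. The rises were led by MRPL24 (0.44 ± 0.060), MRPL57 (0.33 ± 0.110) and MRPS33 (0.33 ± 0.070; adjusted p = 2.15e-07, 0.0281 and 0.000383, edgeR). The call of MRPL57 was lost without DHN-A 2, DHN-A 3, NC 1 or NC 2 (up to 0.16). Among the falls, MRPL22 changed by -0.35 ± 0.063 and MRPL27 by -0.20 ± 0.048 (adjusted p = 4.19e-05 and 0.00215, edgeR). MRPS24 fell by 0.73 ± 0.221 (adjusted p = 0.0139, edgeR), and this call was lost without DHN-A 3 or NC 3 (up to 0.149).

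The interaction is the change in DHN-A against NC-A minus the change in DHN against NC. It was called for 12 members, 3 higher and 9 lower (15.6%), against 25.7% of all tested genes, 13.2% higher and 12.5% lower. Without NC-A 1 the interaction was called for 4420 of all tested genes, against 4592 with every library. The member counts were then 5 higher and 7 lower, and the number of members higher was also 5 without NC-A 3 and without NC 1. Without the filter on low counts 5 were higher and 2 lower, and MRPL32 was among those lost (adjusted p = 0.0592, edgeR). Numbers over all tested genes without NC-A 3, NC 1 or the filter are not given here, so these shifts may not be particular to the members. With every library and the filter, the interaction was -1.06 ± 0.067 for MRPL18, -0.35 ± 0.067 for MRPS5 and -0.27 ± 0.076 for MRPL32 (adjusted p = 4.22e-17, 7.45e-05 and 0.00526, edgeR). It was 0.56 ± 0.171 for MRPL46 and 0.49 ± 0.076 for MRPS6 (adjusted p = 0.0105 and 1.65e-06, edgeR). Of the 79 cytosolic ribosomal protein genes, 46 had a lower interaction by edgeR.

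Summed over its genes, the large subunit stood at 3712 ± 56.3 TPM in DHN-A, 3889 ± 97.3 in DHN, 3742 ± 102 in NC-A and 3563 ± 80.9 in NC (SD, n = 3). The small subunit stood at 2279 ± 26.4 TPM in DHN-A, 2141 ± 1.90 in DHN, 2261 ± 25.2 in NC-A and 2124 ± 45.9 in NC. The ratio of large to small was 1.63, 1.63 and 1.62 in DHN-A, 1.79, 1.79 and 1.87 in DHN, 1.70, 1.68 and 1.59 in NC-A, and 1.65, 1.70 and 1.68 in NC. The 3 DHN libraries were thus above all others, and no test was made of this sum. MRPL18 alone made up 12.7% to 13.1% of the large-subunit sum in DHN, against 6.0% to 6.60% in NC. Without MRPL18 the mean ratio was 1.53 in DHN-A, 1.58 in DHN, 1.56 in NC-A and 1.57 in NC. With members placed by the known structure of the ribosome, which moves MRPS30 and MRPS18A to the large subunit and leaves out MRPS36, the mean ratio was 1.88 in DHN-A, 2.12 in DHN, 1.91 in NC-A and 1.93 in NC.

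**Figure D4:**
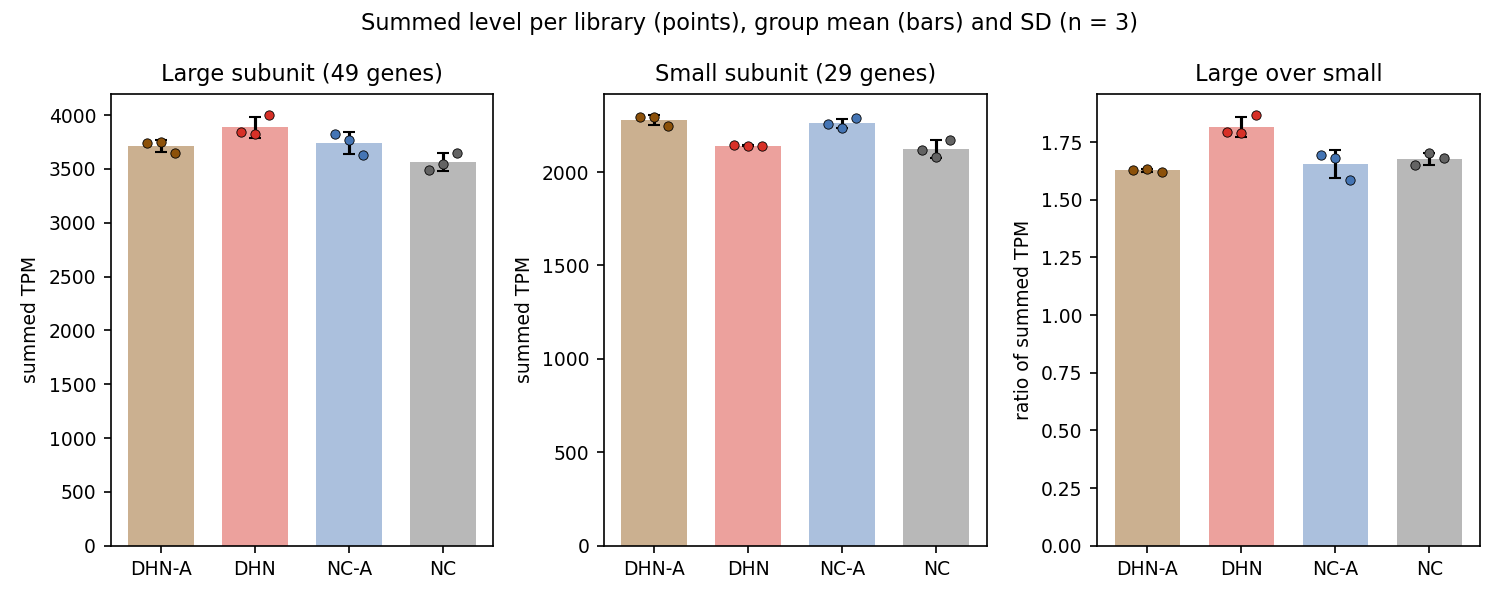
Summed TPM of the large-subunit and small-subunit genes by symbol and their ratio, per library (points), with group means (bars) and SD (n = 3). The ratio lies between 1.79 and 1.87 in the 3 DHN libraries and between 1.59 and 1.70 in the other 9 libraries.

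The 2 ribosomal RNAs of the mitochondrial ribosome were read from the same libraries. The RNA of the large subunit, MT-RNR2, fell by 0.10 ± 0.036 in DHN against NC (adjusted p = 0.0198, edgeR), a call lost without DHN 1, DHN 3, NC 2 or NC 3 (up to 0.169). In DHN-A against NC-A it stood at 7427, 7131 and 6989 CPM in DHN-A and 8284, 8332 and 7914 CPM in NC-A, a change of -0.19 ± 0.036 (adjusted p = 0.00152, edgeR) with no overlap. MT-RNR1, the RNA of the small subunit, changed by -0.30 ± 0.118 in DHN against NC (adjusted p = 0.0846, edgeR), and did not pass the test. It passed with DESeq2 (0.0307), with limma-voom (0.00547) and, at -0.43, with edgeR without NC 1 (2.8e-05). The sources used here do not say how ribosomal RNA was handled in making the libraries. Of 13 mitochondrially encoded messenger RNAs, 2 rose and 8 fell in DHN against NC, and 4 rose and 4 fell in DHN-A against DHN. Over all tested genes 19.7% rose and 19% fell in DHN against NC, and 20.9% rose and 20.8% fell in DHN-A against DHN.

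Of 5 ribosomal proteins whose symbol does not begin with MRP, DAP3 and PTCD3 were called. DAP3, a GTP-binding protein of the small subunit, changed by 0.18 ± 0.051 in DHN against NC and by -0.23 ± 0.050 when DHN-A was set against DHN (adjusted p = 0.00378 and 0.000235, edgeR). The call in DHN against NC was lost without DHN 3 (0.0753). PTCD3, a small-subunit protein with pentatricopeptide repeats, changed in the opposite directions, by -0.30 ± 0.056 and 0.20 ± 0.055 (adjusted p = 2.39e-05 and 0.00227, edgeR). CHCHD1, AURKAIP1 and GADD45GIP1 were called in none of the 5 pairwise comparisons.

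Among 29 tested assembly factors of the mitochondrial ribosome, 5 rose and 3 fell in DHN against NC, and 6 rose and 1 fell in DHN-A against DHN, against 19.7% higher and 19% lower of all tested genes in DHN against NC, and 20.9% higher and 20.8% lower in DHN-A against DHN. TFB1M, which dimethylates the small ribosomal RNA, changed by -0.54 ± 0.081 in DHN against NC and by 0.31 ± 0.081 when DHN-A was set against DHN (adjusted p = 3.56e-07 and 0.00169, edgeR). Among 17 translation factors, to be set against the same shares, 4 rose and 3 fell in DHN against NC, and 5 rose and 5 fell in DHN-A against DHN. RMND1, which is needed for mitochondrial translation, changed by 0.55 ± 0.073 and -0.47 ± 0.071 (adjusted p = 2.75e-08 and 3.75e-07, edgeR). Of 9 genes for mitochondrial transcription and DNA, 6 rose in DHN against NC and 3 fell in DHN-A against DHN, with no call in the other direction. Of 8 regulators of mitochondrial biogenesis, 6 rose in DHN against NC and 6 fell in DHN-A against DHN. GABPA, the DNA-binding subunit of the ETS factor GABP, changed by 0.34 ± 0.062 in DHN against NC and -0.41 ± 0.061 when DHN-A was set against DHN (adjusted p = 1.32e-05 and 2.21e-07, edgeR). PPRC1, a coactivator of the PGC-1 family, changed by 0.46 ± 0.043 and -0.42 ± 0.042 (adjusted p = 1.58e-12 and 1.43e-11, edgeR).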

How the data were processed

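RNA of 12 libraries (4 groups, 3 replicates each) was sequenced from libraries that, per the labels' protocols, keep the strand. The authors deposited raw read counts per gene symbol, and with them a gene length in bases for each symbol. Per the submitters' processing notes, Bowtie and hg38 were used. The sources used here give no counting tool, strand setting or annotation. All 78 members matched GENCODE release 29 by symbol, and 28 had a deposited length equal to the gene's exon bases. Pseudogene symbols of these genes held 0.112 to 0.236 counts per 100 member counts.

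Genes were kept with edgeR's filterByExpr, scaled by TMM and fitted with 1 mean per group over all 12 libraries (edgeR 4.0.16, R 4.3.3, quasi-likelihood, robust). P-values were adjusted by the Benjamini-Hochberg method over 17889 tested genes. CPM and TPM were computed here from the deposited counts. Groups were taken from the labels. Alternatives were DESeq2 1.42.0, limma-voom (limma 3.58.1), relative log expression factors, no filter, only the groups compared, a replicate block, each library left out, and members placed by structure. The sum without MRPL18 and TPM with annotated exon lengths were added after seeing the data. The procedure was tested on simulated data.

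In each comparison the rule for naming took up to 8 members per direction with the largest change among called ones averaging 50 counts or more, and up to 3 genes per direction from each related list. Added were the MRPS18 genes, MRPS30, MRPS36, MRPL12, MRPL58, untested members, both ribosomal RNAs and the subunits without an MRP name; from these, examples are described. TCP1, SLC5A3, MRPS11, MRPL41 and MRPS26 were named after their values were seen. The members and lists were chosen with earlier results of these data known. Mean chi-square values of replicate pairs (1.74 to 4.24 per gene) gave no sign of a library deposited more than once.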

Additional observations from a re-analysis of the deposited data

Results flagged for a closer look

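For 12 members the effect of 1,2-DHN with asparagine differed from its effect without asparagine by the interaction test (edgeR, adjusted p under 0.05). Most of these differences lay on the lower side: -1.06 for MRPL18, -0.35 for MRPS5, -0.28 for MRPL47, -0.27 for MRPL32, -0.27 for MRPS10, -0.26 for MRPL14, -0.21 for MRPS23, -0.20 for MRPS35 and -0.20 for MRPL10, all log2. On the higher side were 0.22 for MRPS18B, 0.49 for MRPS6 and 0.56 for MRPL46. For MRPL10, MRPS10 and MRPS23 each compound alone went with a rise against NC. MRPS10 changed by 0.16 in DHN-A against NC, 0.15 in DHN against NC and 0.27 in NC-A against NC. MRPL10 changed by 0.11, 0.14 and 0.16 in the same comparisons, of which DHN-A against NC did not pass the test. MRPS23 changed by 0.09, 0.14 and 0.15, and again DHN-A against NC did not pass. The interaction was lost for MRPS18B without DHN-A 1 (adjusted p = 0.0654) or DHN 3 (0.0584), for MRPS23 without NC-A 3 (0.0575) or NC 1 (0.0826), for MRPL14 without any of 7 libraries and for MRPS35 without any of 8 libraries (highest 0.147 and 0.171, edgeR). Without the filter on low counts the interaction was also lost for MRPL47 (0.0895), MRPL32 (0.0592), MRPS10 (0.0714), MRPL14 (0.188), MRPS23 (0.115), MRPS35 (0.288) and MRPL10 (0.205), and that of MRPL14 also with DESeq2 (0.0628) and limma-voom (0.0622). MRPL10 was lost as well without NC-A 1 (0.0581) or NC 1 (0.0637). The calls against NC of MRPS10 in DHN and DHN-A and of MRPL10 and MRPS23 in DHN and NC-A were each lost in 2 to 5 of 18 alternatives (up to 0.17); that of MRPS10 in NC-A against NC was kept in all 18.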

How the results depend on the processing

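Of the calls described, those of MRPL18, MRPS5 and MRPS6 in DHN against NC, DHN-A against DHN and the interaction, and those of MRPL24 and MRPS33 in DHN-A against DHN, DHN-A against NC and NC-A against NC, were kept with their direction in the 17 or 18 alternatives run. The members' counts and medians stayed within 1.5 times or within the replicate spread under relative log expression factors, DESeq2, limma-voom, only the groups compared and the replicate block. Without the filter on low counts, 6 members rose in DHN against NC and 6 in NC-A against NC, and the interaction had 5 higher and 2 lower; the cause was not tested. Medians (members, large, small) then were -0.0115, -0.0147 and 0.0132 in DHN-A against NC-A, 0.0135, 0.0195 and -0.0037 in NC-A against NC, and 0.0292, -0.0040 and 0.0655 in the interaction; MRPS30 in NC-A against NC was -0.0154 and MRPS18C in the interaction 0.0210, and MRPS11 in DHN against NC -0.0080. Placed by structure, the small median in NC-A against NC was 0.0502 and the ratio of sums 1.88, 2.12, 1.91 and 1.93 in DHN-A, DHN, NC-A and NC; without MRPL18 it was 1.53, 1.58, 1.56 and 1.57. With 1 library left out, medians of members, large and small ran -0.0504 to 0.0048, -0.0493 to 0.0014 and -0.0639 to 0.0101 in DHN against NC; 0.0169 to 0.0644, 0.0010 to 0.0653 and 0.0028 to 0.0563 in DHN-A against DHN. The small median ran 0.0133 to 0.1001 in NC-A against NC, -0.0471 to 0.0028 in DHN-A against NC-A, with members -0.0460 to -0.0191, and 0.0266 to 0.0693 in DHN-A against NC, with large -0.0198 to 0.0395. In the interaction it ran -0.0288 to 0.0388, with members -0.0383 to 0.0197 and large -0.0624 to -0.0028. Member counts ran 6 to 14 higher in DHN against NC, and 6 to 14 higher and 1 to 3 lower in NC-A against NC. In DHN-A against NC-A they ran 0 to 2 lower, with 143 to 426 of all tested genes called. They ran 4 to 10 higher and 5 to 11 lower in DHN-A against NC, and 3 to 5 higher in the interaction. Counts over all tested genes moved too. Without NC-A 1 they were 7112 in DHN against NC, 2982 in NC-A against NC and 4420 in the interaction, against 6919, 3612 and 4592 with every library. Elsewhere they are not set beside the member counts, so a drop may not be particular to the members. Changes of sign on leaving out 1 library met genes that were not called: MRPL12, at -0.0093 to 0.3622 in DHN against NC, -0.2751 to 0.0963 in DHN-A against DHN, -0.2305 to 0.2283 in NC-A against NC, -0.1824 to 0.3202 in DHN-A against NC-A, -0.1141 to 0.2291 in DHN-A against NC and -0.3435 to 0.1909 in the interaction; MRPS18C, at -0.1248 to 0.0427 in DHN-A against NC-A, -0.0812 to 0.0560 in DHN against NC and -0.1034 to 0.0662 in the interaction; MRPS30, at -0.0137 to 0.0923 in DHN-A against NC and -0.0490 to 0.0569 in NC-A against NC; MRPS36, at -0.1629 to 0.0469 in DHN-A against NC-A and -0.0988 to 0.0224 in NC-A against NC; MRPS18A, at -0.0923 to 0.0103, and SLC5A3, at -0.0322 to 0.0469, in DHN-A against NC-A; DAP3 at -0.0771 to 0.0008, PTCD3 at -0.0007 to 0.1071 and MT-RNR1 at -0.0831 to 0.1240 in NC-A against NC; MRPS11 at -0.0065 to 0.0518 in DHN against NC; MRPL18 at -0.0448 to 0.0416 in DHN-A against NC; MRPS33 at -0.0216 to 0.0679 in the interaction; and MT-RNR2 at -0.0168 to 0.0287 in DHN-A against DHN. With a replicate block, 15 rose and 13 fell in DHN-A against DHN, 12 rose and 10 fell in DHN against NC, 11 rose and 1 fell in NC-A against NC, and 10 rose and 10 fell in DHN-A against NC; MRPS18A in DHN against NC was lost (adjusted p = 0.0522, edgeR) and MRPS36 gained (0.0476). The numbers did not pair samples: of 18 same-number pairs (r from -0.176 to 0.229), 1 exceeded 0.1. The lowest members, such as MRPL38 and MRPS24, had mean counts of 33.5 and 57.1, where the depth limits what can be called.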

Other observations

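Of 12 tested genes of the mitochondrial unfolded protein response, 2 rose and 6 fell in DHN-A against DHN, while 6 rose and 2 fell in DHN against NC. Of all tested genes, 20.9% rose and 20.8% fell in DHN-A against DHN, and 19.7% rose and 19% fell in DHN against NC. In DHN-A against NC-A and in NC-A against NC, 1 fell in each. HSPD1, the chaperonin of the mitochondrial matrix and named here after its values were seen, stood at 369, 354 and 368 CPM in DHN-A, 693, 661 and 643 in DHN, 429.7, 399.9 and 414 in NC-A and 430.5, 421 and 391 in NC. Its 3 DHN libraries were the highest of the 12. The change was -0.87 ± 0.039 in DHN-A against DHN (adjusted p = 1.75e-23, edgeR) and 0.68 ± 0.039 for DHN against NC (adjusted p = 1.03e-19, edgeR).

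Among related genes in NC-A against NC, 3 of 17 translation factors and 3 of 29 assembly factors rose, against 9.32% of all tested genes. Calls among them were lost in 12 of 18 alternatives for MRM1, 5 for LRPPRC and 4 for MTG2, which were named after their values were seen. HEMK1, which methylates mitochondrial release factors, stood at 14.3, 14.5 and 14.4 CPM in NC-A and 8.95, 9.66 and 11.5 CPM in NC, a change of 0.51 ± 0.108 (adjusted p = 0.000408, edgeR). MTIF2, an initiation factor of mitochondrial translation, rose by 0.31 ± 0.058 (adjusted p = 7.13e-05, edgeR). YY1 itself changed by -0.24 ± 0.049 in DHN-A against DHN, 0.13 ± 0.049 in DHN against NC and -0.17 ± 0.051 in NC-A against NC (adjusted p = 5.49e-05, 0.0315 and 0.0147, edgeR). The call of YY1 in NC-A against NC was lost without NC-A 3, NC 1 or NC 3 (adjusted p up to 0.0797, edgeR), and that in DHN against NC in 7 of 18 alternatives (up to 0.262). The part of YY1 in the members' changes was not tested.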
